A study of Mus musculus with 9 samples.

Results

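The 5 NF-κB subunit genes and 5 genes of their IκB inhibitors were followed across 9 libraries of RAW264.7 RNA. The 10 genes were taken by name from the deposited table: the canonical subunits Nfkb1, Rel and Rela, the noncanonical subunits Nfkb2 and Relb, the cytoplasmic inhibitors Nfkbia, Nfkbib and Nfkbie, and the atypical nuclear inhibitors Nfkbiz and Bcl3. They are 10 of 53170 named genes in the table. All 10 passed the filter on low values (a mean of at least 0.5 FPKM, fragments per kilobase of gene scaled to library depth, over the 9 libraries), as did 12011 genes in all.

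RAW264.7 is a mouse macrophage-like line, labelled wild type here. The groups were cells on a membrane labelled BMC that were also stimulated with LIPUS (BMC+LIPUS), cells on the BMC membrane without LIPUS (BMC), and blank control cells, with 3 libraries each. The labels do not spell out BMC; the title of the series names piezoelectric membranes, LIPUS (by its usual meaning low-intensity pulsed ultrasound) and macrophage polarization. All groups shared the cell line and a serum-containing αMEM medium, and no group had LIPUS without the membrane. Nothing states that replicate libraries are independent cultures, and the p-values below therefore cover the spread among these 9 samples alone, which may be technical.

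NF-κB proteins are dimeric transcription factors that IκB proteins hold inactive in the cytoplasm. In the canonical branch, signals from Toll-like, interleukin-1 and tumour necrosis factor receptors activate the IKK kinase, IκB is degraded and dimers with RelA or c-Rel enter the nucleus, which in macrophages switches on cytokine and chemokine genes. In the noncanonical branch, the kinase NIK leads to processing of the Nfkb2 product and release of dimers with RelB. Several subunit and inhibitor genes are themselves known NF-κB targets, so the pathway carries its own feedback.

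The promoters of the members are shown because most of the members moved together in the comparison with control. RefSeq promoter sequences of build GRCm38.p6, each 300 bases long with 250 before and 50 after an annotated transcript start, were at hand for 7 of the 10 members and covered 9 starts, 3 of them of Nfkb2. The authors' counts were made on GRCm39, per the submitters' processing notes, and the promoters were matched by symbol only. A search on both strands for the κB consensus, the 10-base motif that NF-κB dimers bind, found a match at 7 of the 9 starts and in 5 of the 7 members: Rel, Nfkb2, Nfkbia, Nfkbie and Bcl3. The same motif was present in 8.46% of all 32851 promoters of this length. Overlapping matches were joined into 1 stretch and are in capitals below, and each sequence reads 5′ to 3′ on the strand of its gene.

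Nfkb2 (the first start, chr19:46304487-46304786, + strand): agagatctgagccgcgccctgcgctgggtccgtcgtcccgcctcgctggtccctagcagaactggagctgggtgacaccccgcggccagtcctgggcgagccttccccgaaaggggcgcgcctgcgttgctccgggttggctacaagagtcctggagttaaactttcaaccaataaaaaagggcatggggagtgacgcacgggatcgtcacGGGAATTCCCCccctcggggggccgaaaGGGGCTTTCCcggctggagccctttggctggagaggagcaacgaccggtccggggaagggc
Nfkbia (chr12:55492598-55492897, - strand): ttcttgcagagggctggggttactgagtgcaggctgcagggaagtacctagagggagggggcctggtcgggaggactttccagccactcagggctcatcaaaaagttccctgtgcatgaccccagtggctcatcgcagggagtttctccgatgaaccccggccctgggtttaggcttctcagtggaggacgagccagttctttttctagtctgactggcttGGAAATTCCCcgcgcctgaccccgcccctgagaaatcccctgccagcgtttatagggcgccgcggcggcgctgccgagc
Rel (chr11:23770920-23771219, - strand): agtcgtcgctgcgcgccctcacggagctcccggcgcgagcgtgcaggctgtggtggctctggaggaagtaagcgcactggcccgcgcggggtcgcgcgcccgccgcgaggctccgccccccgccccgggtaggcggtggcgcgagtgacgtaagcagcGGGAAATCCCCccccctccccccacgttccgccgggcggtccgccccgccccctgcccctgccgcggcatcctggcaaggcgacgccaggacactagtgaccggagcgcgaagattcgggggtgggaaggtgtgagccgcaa
Nfkbie (chr17:45555450-45555749, + strand): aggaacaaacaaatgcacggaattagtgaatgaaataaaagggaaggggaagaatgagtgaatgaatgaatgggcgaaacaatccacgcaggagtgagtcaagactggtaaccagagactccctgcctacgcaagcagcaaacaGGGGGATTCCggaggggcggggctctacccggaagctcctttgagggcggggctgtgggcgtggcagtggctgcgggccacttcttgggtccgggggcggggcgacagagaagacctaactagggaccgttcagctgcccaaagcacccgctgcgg
Bcl3 (chr7:19822706-19823005, - strand): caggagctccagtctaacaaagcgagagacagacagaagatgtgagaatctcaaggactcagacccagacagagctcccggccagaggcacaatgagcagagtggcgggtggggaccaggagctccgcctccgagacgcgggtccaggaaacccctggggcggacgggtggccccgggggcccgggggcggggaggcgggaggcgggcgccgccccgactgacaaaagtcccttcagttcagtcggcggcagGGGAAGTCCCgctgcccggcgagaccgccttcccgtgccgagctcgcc

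The Nfkb2 window held a stretch of 11 bases starting 39 bases before the start and another of 10 bases starting 11 bases before it. Its other two starts lie downstream, at windows chr19:46305445-46305744 and chr19:46305680-46305979, and hold 2 further stretches, 1 of which falls in both windows. The stretch of Nfkbia began 29 bases before the start, that of Rel 92 bases before and that of Nfkbie 106 bases before. In Bcl3 it lay at positions 3 to 12 of the transcript. The windows of Rela and Nfkbib held no match to the consensus, and the looser pattern GGGNNNNNCC, which 50.8% of all promoters hold, occurred in the window of Rela but not in that of Nfkbib. A match describes letters in a window and does not show binding, and these counts do not tell which start was used.

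**Figure D1:**
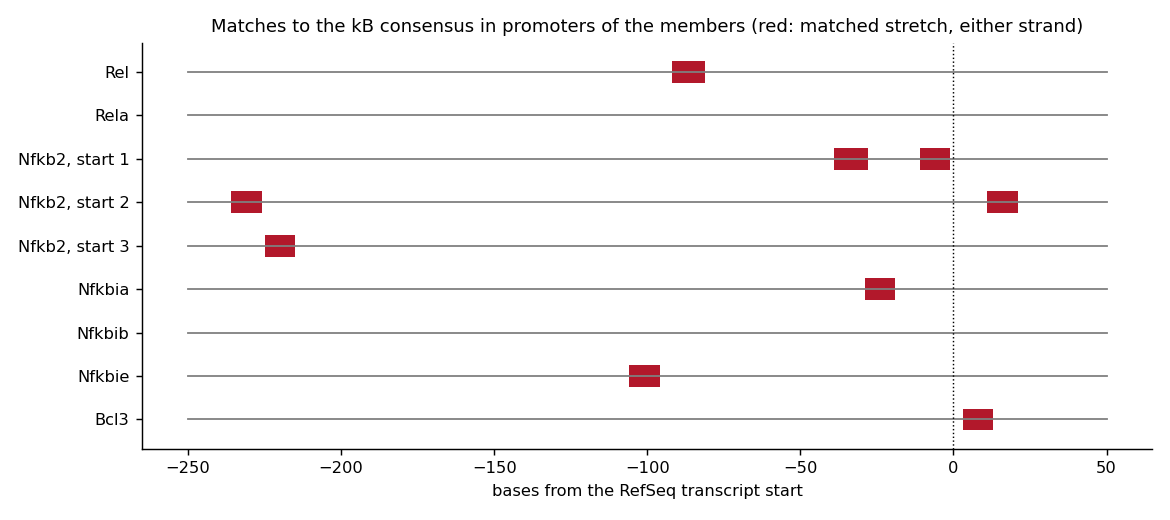
Positions of κB consensus matches (red bars, either strand) along the promoter windows of 7 members, in bases from the RefSeq transcript start; a grey line is 1 window. Matches stand just before the start in Nfkbia and at the first start of Nfkb2, farther upstream in Rel and Nfkbie, and after the start in Bcl3, while Rela and Nfkbib have none.

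The libraries held 12675541 to 16574453 counts on named genes, and 17035 to 17879 genes had at least 1 count. No pair of libraries in a group was a near copy. Of 10 macrophage markers 8 averaged at least 0.5 FPKM in each group, with Lyz2 at 4909.57 to 5782.45 FPKM over all libraries, while Cd163 was at 0. Of the 8 tested, Cd14, Spi1 and Lyz2 were called higher and Cd68 and Fcgr1 lower in BMC against control, and all of these but Lyz2 were called in the same direction in BMC+LIPUS against control. The shares of all genes called were 17.2% higher and 18.8% lower in the first comparison, and 21.1% and 21.9% in the second. Lyz2 was 1.12-fold higher in BMC than in control, with overlapping ranges. Cd14, a coreceptor of Toll-like receptors, had 1019.9 to 1107.6 FPKM in BMC+LIPUS, 991.58 to 1116.26 in BMC and 571.74 to 669.47 in control. Spi1, the gene of the myeloid factor PU.1, had 164.74 to 169.84 FPKM in BMC+LIPUS, 156.01 to 164.04 in BMC and 120.57 to 144.74 in control, and Cd68 had 434.2 to 495.88 FPKM in BMC+LIPUS, 447.65 to 496.51 in BMC and 555.56 to 611.19 in control. The summed level of the 10, mostly Lyz2, was 7421 to 7665 FPKM in BMC+LIPUS, 7224 to 7975 in BMC and 6585 to 7368 in control. Its ranges in BMC and control overlapped. Of 29 markers of other cell types, 16 were at 0 in every library. Summed levels moved with the membrane for the 6 granulocyte markers, mainly Csf3r, at 1.69 to 1.98 FPKM in BMC+LIPUS, 2.26 to 2.78 in BMC and 5.81 to 6.73 in control. They moved as well for the 6 lymphocyte markers, mainly Lck, at 2.27 to 3.05 FPKM in BMC+LIPUS, 2.12 to 2.76 in BMC and 0.87 to 1.05 in control. The 6 fibroblast markers, nearly all of it Pdgfrb, summed to 1.22 to 1.45 FPKM in BMC+LIPUS, 0.91 to 1.45 in BMC and 0.57 to 0.65 in control. The 5 dendritic markers, mainly Siglech, summed to 0.40 to 0.99 FPKM in BMC+LIPUS, 0.51 to 0.80 in BMC and 0.95 to 1.24 in control, and the 6 epithelial and endothelial markers to at most 0.06 FPKM. The part of these levels in the results below was not tested.

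BMC was set against control to ask what the membrane alone did to the members. Of the 10 members, 9 rose on the membrane and none fell; Bcl3 was not called (edgeR, adjusted p under 0.05). Over all genes tested, 17.2% were called higher and 18.8% lower; with library totals in place of TMM scaling these shares were 12.15% and 23.0%, and 9 members were again called higher. The median log2 change of the members was 0.55, against 0.01 over all genes tested. In the same 9 members the 3 BMC libraries lay wholly above the 3 control libraries, while 46.5% of all genes had groups that did not overlap in either direction. RNA of whole cultures was measured, so a change in the number of cells of a type and a change in RNA per cell cannot be told apart.

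The comparison of BMC+LIPUS with BMC asked what LIPUS added. None of the 10 members was called by edgeR, by DESeq2 or by limma, in a comparison where edgeR called 0.0916% of all genes higher and 0.0167% lower. Of the 12011 genes, DESeq2 called 48 higher and 40 lower. Limma called 0 higher and 0 lower on log2(FPKM + 1), and 0 and 1 on log2(FPKM + 0.1). With hardly any gene called by limma, the absence of members there says little about them. At an unadjusted p under 0.05 there were 3 members, Nfkbiz, Rel and Nfkb2, all higher, while 6.31% of all genes were higher at that level. The libraries did not overlap for Rel, Rela and Nfkbiz, all higher, and groups did not overlap in either direction for 15.8% of all genes. The median log2 change of the members was 0.07, against -0.00176 over all genes.

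In BMC+LIPUS against control, 9 members rose and had groups that did not overlap, all but Bcl3, which was not called. The background here was 21.1% of all genes called higher, 21.9% lower and 50.9% not overlapping (15.6% higher and 26.7% lower with library totals), and the median log2 change of the members was 0.56. This comparison uses the same 3 control libraries as BMC against control, so its calls do not stand as a separate replicate.

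**Figure D2:**
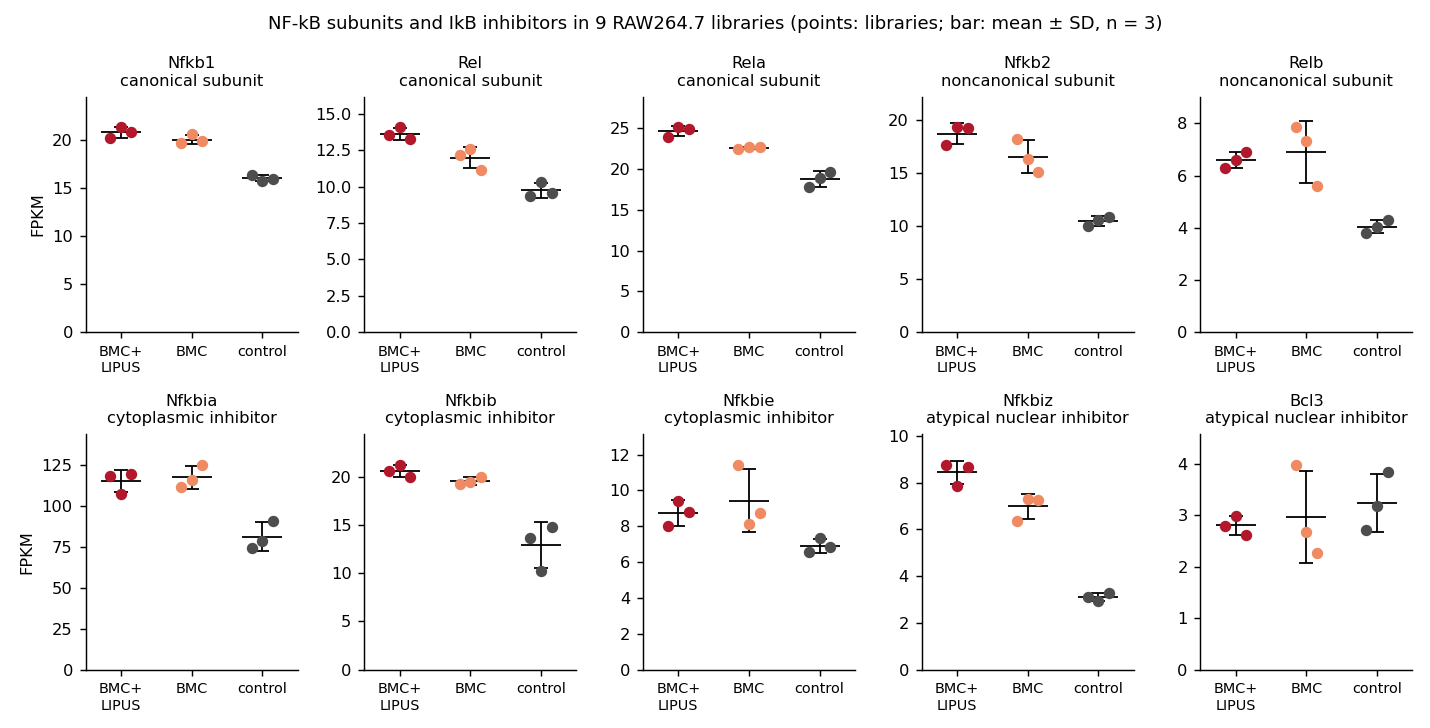
Level of each member in FPKM (y axis, from 0) in each library (points), with mean ± SD of 3 libraries (black), for BMC+LIPUS, BMC and control. In 9 panels every membrane library lies above the 3 controls, and in the Bcl3 panel the groups overlap.

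The canonical subunits rose by 1.26-fold to 1.47-fold in the comparisons with control. Nfkb1, whose product is cut to the DNA-binding subunit p50, had 20.21, 21.36 and 20.93 FPKM in BMC+LIPUS, 19.69, 20.62 and 19.92 in BMC and 16.39, 15.81 and 16.00 in control. The 6 membrane libraries were close together and above every control. The fitted change was 1.31-fold in BMC against control (95% interval 1.21 to 1.41, edgeR adjusted p = 4.43e-05) and 1.36-fold in BMC+LIPUS against control (edgeR adjusted p = 6.93e-06). With 2645 to 3727 counts a library, Nfkb1 was the most deeply counted member, and its log2 change had the smallest standard error (SE) of the 10, 0.05.

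Rela encodes p65, the subunit with the main transactivation domain of the canonical dimer. It had 23.90, 25.07 and 24.91 FPKM in BMC+LIPUS, 22.47, 22.70 and 22.63 in BMC and 17.73, 18.91 and 19.60 in control. The 3 groups formed separate steps, with BMC+LIPUS highest and control lowest. Rela was 1.26-fold higher in BMC than in control (edgeR adjusted p = 0.000805) and 1.38-fold higher in BMC+LIPUS than in control (edgeR adjusted p = 2.85e-05). Between BMC+LIPUS and BMC the fold was 1.09 with an interval of 0.996 to 1.20, and it was not called (edgeR adjusted p = 0.458).

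Rel encodes c-Rel, the canonical subunit found mostly in blood cells. Its levels were 13.55, 14.06 and 13.25 FPKM in BMC+LIPUS, 12.20, 12.58 and 11.16 in BMC and 9.36, 10.28 and 9.56 in control. Again each group lay wholly above the next. The change was 1.29-fold in BMC against control (edgeR adjusted p = 0.000352) and 1.47-fold in BMC+LIPUS against control (edgeR adjusted p = 3.97e-06). In BMC+LIPUS against BMC it was 1.14-fold with an interval of 1.04 to 1.25, at an unadjusted p of 0.00833 but an edgeR adjusted p of 0.260.

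The noncanonical subunits had larger fitted folds than the canonical ones in either comparison with control. Nfkb2, which encodes p100, both an IκB-like inhibitor and the precursor of p52, had 17.59, 19.28 and 19.22 FPKM in BMC+LIPUS, 18.19, 16.30 and 15.13 in BMC and 9.96, 10.57 and 10.84 in control. BMC and BMC+LIPUS overlapped through the highest BMC library, and both stood well above control. Nfkb2 was 1.65-fold higher in BMC (95% interval 1.48 to 1.85, edgeR adjusted p = 2.11e-06) and 1.88-fold higher in BMC+LIPUS (edgeR adjusted p = 1.08e-07) than in control. Its promoter window, given above, holds 2 of the κB stretches.

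Relb, the DNA-binding partner of p52, had 6.29, 6.59 and 6.92 FPKM in BMC+LIPUS, 7.85, 7.32 and 5.59 in BMC and 3.80, 4.05 and 4.30 in control. The BMC libraries were spread around the BMC+LIPUS ones, and the lowest of them was still above every control. The fold was 1.79 in BMC against control (95% interval 1.51 to 2.12, edgeR adjusted p = 3.51e-05) and 1.71 in BMC+LIPUS against control (edgeR adjusted p = 5.32e-05). In BMC against control the intervals of Nfkb2 and Relb began above the ends of all 3 canonical intervals, the highest of which was 1.41. In BMC+LIPUS against control this held for Nfkb2, from 1.68 against a highest canonical end of 1.61, but not for Relb, from 1.44. Between BMC+LIPUS and BMC the Relb fold was 0.957 with an interval of 0.813 to 1.13 (edgeR adjusted p = 0.872).

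Within single libraries, which removes the scaling between them, the transcript ratios of noncanonical to canonical subunits showed the same step. The size of these ratios depends on the gene lengths behind the FPKM, and the activity of the branches was not measured. The FPKM ratio of Nfkb2 to Nfkb1 was 0.870, 0.903 and 0.918 in BMC+LIPUS, 0.924, 0.791 and 0.760 in BMC and 0.608, 0.669 and 0.678 in control. The ratio of Relb to Rela was 0.263, 0.263 and 0.278 in BMC+LIPUS, 0.349, 0.323 and 0.247 in BMC and 0.214, 0.214 and 0.219 in control. In either ratio every membrane library exceeded every control, and the BMC libraries were the most spread. Nfkb2 and Relb together made up 29.3% to 30.7% of the summed FPKM of the 5 subunits in BMC+LIPUS, 27.8% to 32.4% in BMC and 24.0% to 25.1% in control, so the canonical subunits stayed the larger share throughout. By contrast, Rel and Rela, both canonical, kept overlapping log2 ratios, at -0.91 to -0.82 in BMC+LIPUS, -1.02 to -0.85 in BMC and -1.04 to -0.88 in control.

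The mean log2 change of Nfkb2 and Relb exceeded that of Nfkb1, Rel and Rela by 0.42 in BMC against control and by 0.35 in BMC+LIPUS against control. Leaving out 1 library at a time moved these differences between 0.33 and 0.50 and between 0.32 and 0.38. The pooled SD of the same quantity among libraries of a group, on log2 FPKM, was 0.11. In BMC+LIPUS against BMC the difference was -0.07, and leaving out 1 library at a time moved it between -0.14, without BMC replicate 3, and 0.02, without BMC replicate 1. These are descriptions of 5 genes, and no test was made over them.

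**Figure D3:**
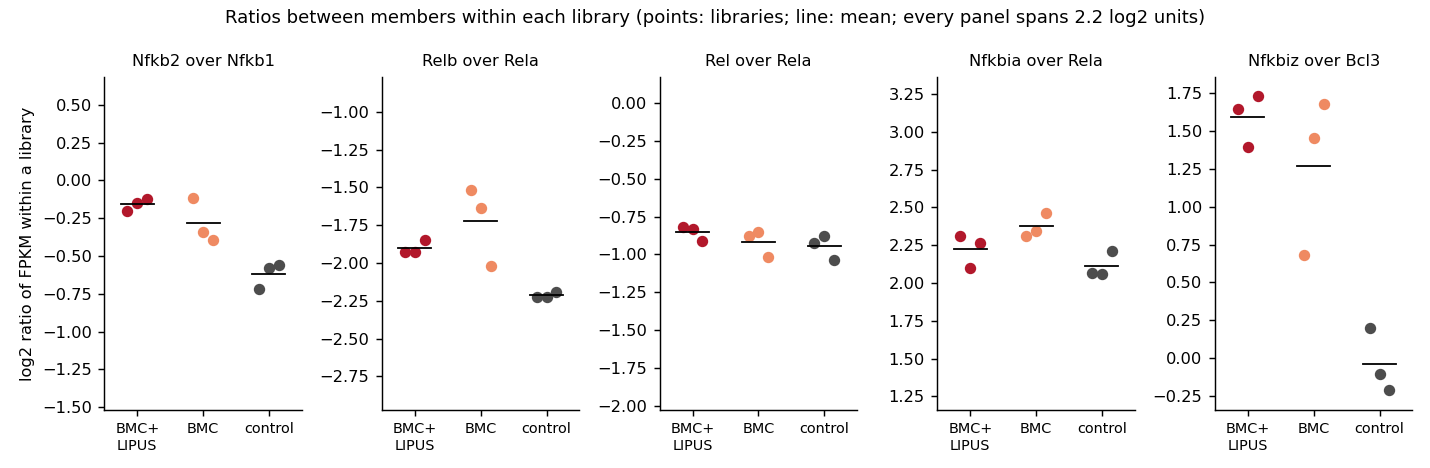
Log2 ratio of FPKM between 2 members within a library (y axis), for BMC+LIPUS, BMC and control; points are libraries and lines are means of 3. Nfkb2 over Nfkb1, Relb over Rela and Nfkbiz over Bcl3 stand higher in every membrane library than in any control, and Rel over Rela overlaps among the groups. Nfkbia over Rela stands higher in BMC than in control and overlaps between BMC+LIPUS and control.

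The cytoplasmic inhibitors rose on the membrane together with the subunits they bind. Nfkbia, the gene of IκBα, which is degraded on signalling and made again as feedback, had the highest FPKM of the members in every group. It had 118.43, 107.51 and 119.63 FPKM in BMC+LIPUS, 111.42, 115.51 and 125.06 in BMC and 74.06, 78.69 and 90.87 in control. The 2 membrane groups overlapped almost wholly, and each of their libraries was above the highest control. Nfkbia was 1.51-fold higher in BMC (95% interval 1.34 to 1.70, edgeR adjusted p = 3.41e-05) and 1.49-fold higher in BMC+LIPUS (edgeR adjusted p = 3.16e-05) than in control, and the fold between BMC+LIPUS and BMC was 0.987 with an interval of 0.877 to 1.11.

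Nfkbib, the gene of IκBβ, had 20.62, 21.22 and 19.91 FPKM in BMC+LIPUS, 19.24, 19.39 and 19.99 in BMC and 13.67, 10.23 and 14.80 in control. The membrane libraries were close together, whereas the controls were spread, with control replicate 2 lowest. The fold against control was 1.59 in BMC (edgeR adjusted p = 0.000145) and 1.68 in BMC+LIPUS (edgeR adjusted p = 3.30e-05). Its promoter window held neither form of the κB motif.

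Nfkbie, the gene of IκBε, had 7.99, 9.42 and 8.82 FPKM in BMC+LIPUS, 11.43, 8.13 and 8.74 in BMC and 6.57, 7.34 and 6.85 in control. A single BMC library was high and the other membrane libraries lay at 7.99 to 9.42 FPKM, just above the controls. The change was 1.42-fold in BMC against control (edgeR adjusted p = 0.00244) and 1.32-fold in BMC+LIPUS against control (edgeR adjusted p = 0.00947). The call in BMC+LIPUS against control was lost in limma fits of the FPKM values (adjusted p = 0.0561 with a pseudocount of 1 and 0.0536 with 0.1).

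Set against the subunits, the summed level of the 3 cytoplasmic inhibitors did not part the groups. It was 1.60 to 1.80 times the summed FPKM of the 5 subunits in BMC+LIPUS, 1.77 to 2.07 times in BMC and 1.61 to 1.87 times in control. The ranges overlapped, with both sums higher on the membrane: the subunits summed to 81.5 to 86.4 FPKM in BMC+LIPUS, 74.4 to 80.4 in BMC and 57.2 to 60.3 in control, and the inhibitors to 138 to 148 FPKM in BMC+LIPUS, 142 to 154 in BMC and 94.3 to 113 in control. Nfkbia alone was 77.8% to 80.6% of the inhibitor sum in BMC+LIPUS, 78.4% to 81.3% in BMC and 78.5% to 81.8% in control. The log2 ratio of Nfkbia to Rela was 2.1 to 2.309 in BMC+LIPUS, 2.31 to 2.466 in BMC and 2.057 to 2.213 in control. For this pair BMC lay wholly above control, while BMC+LIPUS overlapped control. The size of these ratios and shares depends on the gene lengths behind the FPKM. These are transcript levels, and IκB protein is set in large part by degradation.

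The atypical nuclear inhibitors differed from each other. Nfkbiz encodes IκBζ, an inducible nuclear protein that works with p50 at a subset of inflammatory genes, and had the largest fold of the 10 members in either comparison with control. Its levels were 8.77, 7.87 and 8.69 FPKM in BMC+LIPUS, 6.38, 7.31 and 7.28 in BMC and 3.11, 2.94 and 3.30 in control. The groups were 3 separate steps, and the lowest membrane library, at 6.38 FPKM, was far above the highest control, at 3.30. The change was 2.35-fold in BMC against control (95% interval 2.04 to 2.70, edgeR adjusted p = 7.88e-08) and 2.85-fold in BMC+LIPUS against control (95% interval 2.49 to 3.27, edgeR adjusted p = 4.29e-09). In BMC+LIPUS against BMC it was 1.21-fold with an interval of 1.07 to 1.38, at an unadjusted p of 0.00533 and an edgeR adjusted p of 0.224.

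Bcl3, whose product binds p50 and p52 homodimers in the nucleus, had 2.80, 2.99 and 2.62 FPKM in BMC+LIPUS, 3.98, 2.67 and 2.27 in BMC and 2.71, 3.17 and 3.83 in control. All 3 groups overlapped, and both the highest and the lowest library were BMC ones. The fold was 0.962 in BMC against control with an interval of 0.724 to 1.28 (edgeR adjusted p = 0.849) and 0.910 in BMC+LIPUS against control with an interval of 0.684 to 1.21 (edgeR adjusted p = 0.607). Bcl3 was the lowest counted member, with 72 to 138 counts a library, and its SE on the log2 scale was 0.19 in each of these comparisons. At this depth a change of the size seen for Nfkbia or Nfkbiz lay outside the BMC interval, and one like that of Rela, 1.26-fold, did not. Within libraries, the log2 ratio of Nfkbiz to Bcl3 was 1.40 to 1.73 in BMC+LIPUS, 0.68 to 1.68 in BMC and -0.21 to 0.20 in control.

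**Figure D4:**
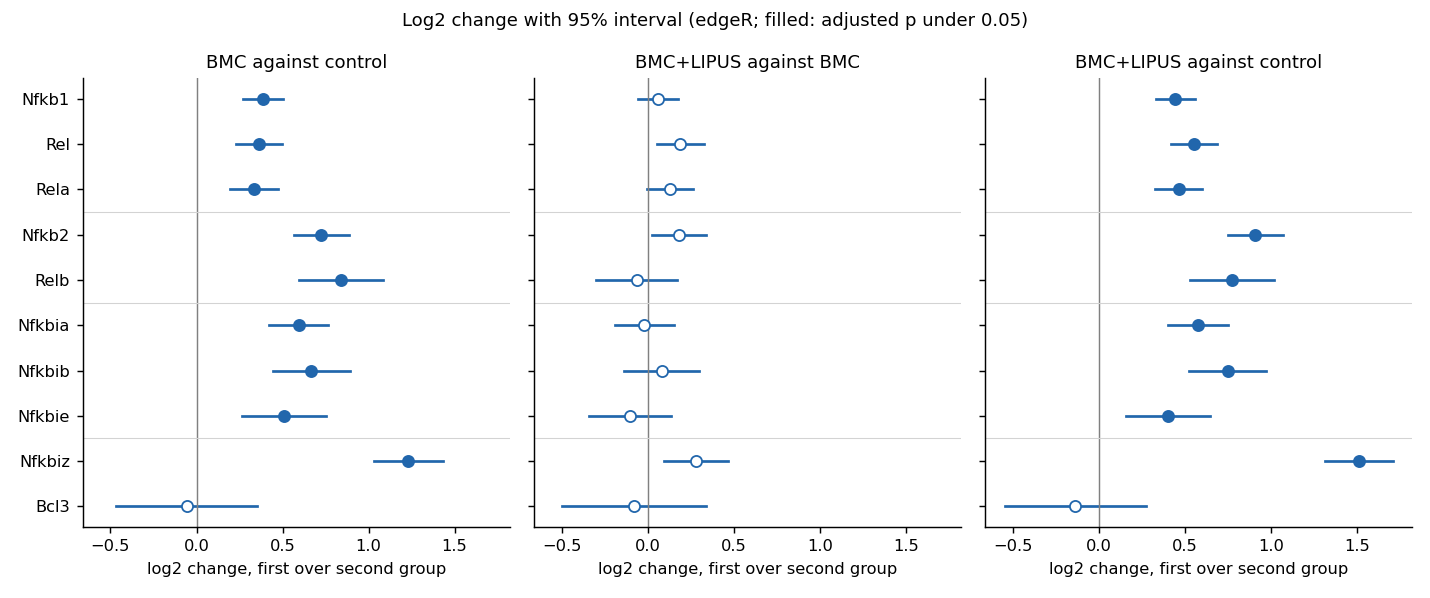
Log2 change of each member with its 95% interval (x axis, fitted by edgeR over 9 libraries) for 3 comparisons, each titled with its first and second group; filled points passed an adjusted p under 0.05. The outer panels show 9 filled points to the right of 0, with Nfkbiz farthest at 1.23 and 1.51, and the middle panel shows none filled.

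On the FPKM scale, which corrects for gene length, the order of the members was nearly the same in every group. Nfkbia led, followed by Rela, Nfkb1 and Nfkbib, then Nfkb2 and Rel. Nfkb1 and Nfkbib overlapped in BMC+LIPUS and in BMC, Nfkbie and Nfkbiz in BMC+LIPUS, Rel and Nfkbie in BMC, and Nfkbib, Nfkb2 and Rel overlapped in turn in control. The lower end changed: Nfkbiz was the lowest member in control, at 3.12 ± 0.18 FPKM, in overlap with Bcl3, and stood above Relb in BMC+LIPUS at 8.44 ± 0.50 FPKM and in overlap with Relb in BMC at 6.99 ± 0.53 FPKM (SD, n = 3 each). The spread differed among groups as well. In BMC the coefficient of variation was 30.1% for Bcl3, 18.6% for Nfkbie and 17.1% for Relb, each highest in BMC replicate 1, while in BMC+LIPUS no member exceeded 8.21%. In control the largest were 18.4% for Nfkbib and 17.4% for Bcl3.

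The other genes of the pathway were described from 9 lists of 74 genes, of which 71 were tested. The lists were chosen with earlier results of these data known, so their shares are descriptions only. Of the 71, 32 were called higher and 6 lower in BMC against control, which is 45.1% and 8.45%, against 17.2% and 18.8% of all genes tested. The list of target genes, with 17 tested, held 14 of these 32. The counts in BMC+LIPUS against control were 37 higher and 6 lower, which is 52.1% and 8.45%, against 21.1% and 21.9%. Under the alternatives the number called higher was 24 to 33 in BMC against control and 29 to 37 in BMC+LIPUS against control, lowest with the minimum of 5 FPKM, which leaves fewer genes tested. In the smaller lists below, a single call moves the share greatly, so no result is read from 1 or 2 called genes. The genes that rose stood at several levels, from receptors to kinases and targets, with a median log2 change over the 71 of 0.16 in BMC against control, against 0.01 over all genes tested.

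In BMC against control, 17.2% of all genes were called higher and 18.8% lower. Among 13 tested canonical receptors and adaptors, 5 rose and 1 fell in this comparison. Irak2, a kinase-like adaptor of Toll-like and interleukin-1 receptors, changed most, with 24.0 ± 0.89 FPKM in BMC and 10.8 ± 0.50 in control (SD, n = 3), a 2.31-fold rise (edgeR adjusted p = 1.95e-09). The receptor Tlr4 rose 1.33-fold and the adaptor Myd88 1.37-fold. Of 10 IKK subunits and activating kinases 5 rose and 1 fell. Of the 5, Tab2 (log2 change 0.19) and Tbk1 (0.20) kept the call under 10 of 18 alternatives each, and lost it with library totals, with the minimum of 5 FPKM, in both limma fits, and without control replicate 1 or 3 or BMC replicate 3; Tab2 also lost it without BMC replicate 2, and Tbk1 with no filter. The catalytic subunits Chuk (IKKα) and Ikbkb (IKKβ) rose 1.32-fold and 1.22-fold, and Ikbke, a related kinase, rose 1.76-fold, while Ikbkg, the scaffold NEMO, had a log2 change of -0.01 (edgeR adjusted p = 0.971). The member that fell was Tab1, a partner of the kinase TAK1, at 1.33-fold lower. Of 5 genes of the ubiquitin ligase that marks IκB for degradation, Fbxw11 alone was called, at 1.30-fold higher.

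The upstream genes of the noncanonical branch were called higher at a share near that over all genes, with 2 of 10 tested against 17.2%. Over all genes, 18.8% were called lower. Of 4 tested receptors none rose and 2 fell: Tnfrsf1b (TNFR2), with 18.5 ± 1.28 FPKM in BMC and 27.2 ± 0.09 in control, was 1.41-fold lower (edgeR adjusted p = 6.50e-05), and Tnfrsf11a, the RANK receptor, was 1.36-fold lower (edgeR adjusted p = 0.00804). Map3k14, the gene of NIK, had 3.23, 2.92 and 3.00 FPKM in BMC and 3.73, 3.49 and 3.70 in control, and was not called (log2 change -0.19, edgeR adjusted p = 0.188). Of the 6 genes of the NIK axis, Map3k14 included, 2 rose and 1 fell in BMC against control. Birc3 (cIAP2), a ubiquitin ligase that helps to keep NIK low and is a known NF-κB target, rose 1.47-fold, and Otud7b, a deubiquitinase of TRAF3, rose 1.36-fold. Traf3 itself, at 1.14-fold lower, was called at an edgeR adjusted p of 0.0461, and the call was lost with no filter, in a fit of the 6 libraries compared, and on leaving out any 1 control, BMC replicate 1 or 3, or BMC+LIPUS replicate 1.

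Of 6 deubiquitinases and feedback genes, 3 rose and 1 fell in BMC against control. The shares of all genes called were 17.2% higher and 18.8% lower. Tnfaip3 (A20), a feedback inhibitor and target, rose 1.42-fold, Tnip1, its binding partner, 1.28-fold and the RNase gene Zc3h12a 1.47-fold, while Cyld, another deubiquitinase that restrains IKK, was 1.31-fold lower (edgeR adjusted p = 0.000366). Of 7 other IκB-like or NF-κB-binding inhibitors, Nkrf, a repressor, alone was called in BMC against control, at 1.32-fold higher. Nfkbid, another atypical IκB gene, was called in BMC+LIPUS against control, where it had 14.2 ± 1.01 FPKM in BMC+LIPUS and 11.3 ± 0.77 in control (1.32-fold, edgeR adjusted p = 0.00273). Crebbp, a coactivator gene, was called in BMC against control, at 1.21-fold higher, and lost the call in limma fits of the FPKM values.

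Known target genes had larger changes at the median than the members. Of 17 tested, 14 rose and none fell in BMC against control, with a median log2 change of 1.22, and 13 rose in BMC+LIPUS against control. Over all genes, 17.2% and 21.1% were called higher in these comparisons, in that order. Cxcl2, a neutrophil-attracting chemokine, had 81.14, 82.36 and 71.80 FPKM in BMC and 5.65, 3.50 and 5.01 in control, and Ptgs2, the inducible cyclooxygenase, had 4.09, 4.53 and 3.55 FPKM in BMC and 0.76, 0.84 and 0.80 in control. In either gene the lowest membrane library was several times the highest control. Not every listed target rose: Ccl5 and Gadd45b, with log2 changes of 0.37 and 0.03, and Il1b, at -0.31, were not called. Ccl5 had 4 to 21 and Il1b 5 to 31 counts a library. Il6, also listed, had 0 counts in every library and was not tested.

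Against control, BMC+LIPUS gave counts near those of BMC in most of these lists, with the control libraries again shared. In this comparison 21.1% of all genes were called higher and 21.9% lower. There, 7 of 13 canonical receptors and adaptors rose and 1 fell, 6 of 10 IKK genes rose and 1 fell, and 2 of 6 NIK axis genes rose and none fell. Among these, Tlr2, Irak4 and Map3k7 lost the call with library totals, in both limma fits and without some of the libraries, and so did Tnfaip3 of the feedback genes. Il1b, called higher in BMC+LIPUS against control among the 13 targets, lost the call with DESeq2, in the limma fit with a pseudocount of 0.1, and without control replicate 1 or 2 or BMC+LIPUS replicate 2 or 3. Irak2 was 2.58-fold, Ikbke 2.06-fold and Otud7b 1.63-fold higher than in control, and Tnfrsf1b and Tnfrsf11a were 1.26-fold and 1.46-fold lower. Map3k14 was again not called (log2 change -0.13, edgeR adjusted p = 0.368).

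In BMC+LIPUS against BMC, Cxcl2 was the 1 pathway gene called of 71, with 125.15, 115.26 and 106.91 FPKM in BMC+LIPUS (1.48-fold, edgeR adjusted p = 0.0345). All its BMC+LIPUS libraries lay above the BMC ones. The call was lost without control replicate 3, BMC replicate 1 or 2, or BMC+LIPUS replicate 1 or 3 (edgeR adjusted p of 0.0600 to 0.131), and in limma fits, with a log2 change of 0.51 to 0.61 throughout. At an unadjusted p under 0.05 there were 18 of the 71 genes in either direction, against 11.5% of all genes tested.

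**Figure D5:**
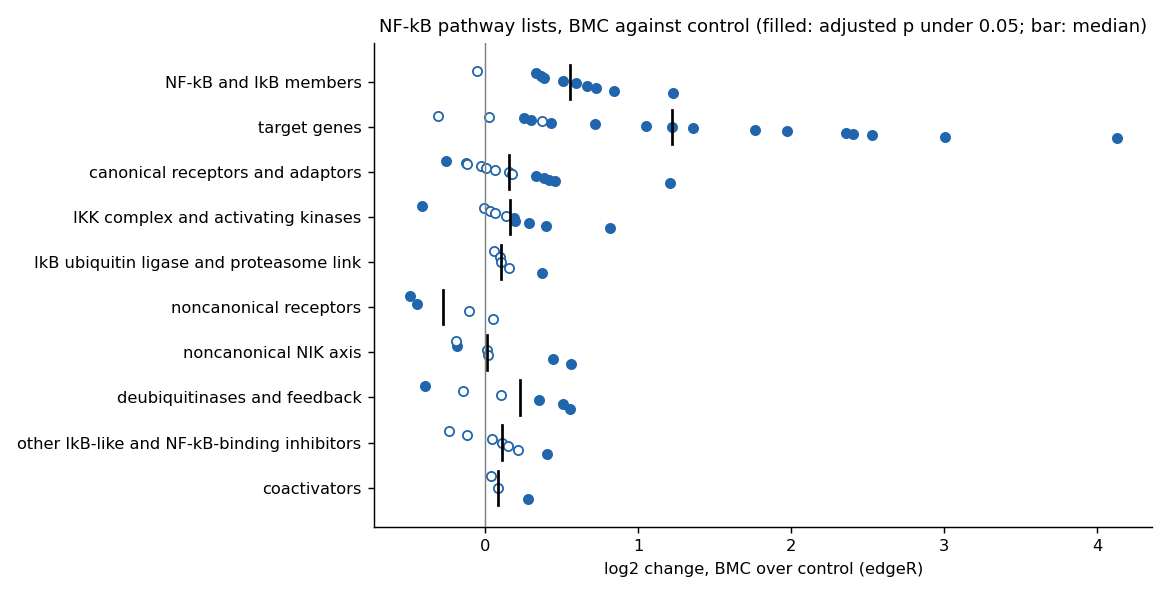
Log2 change in BMC against control (x axis) for the members and the genes of 9 other pathway lists; each point is a gene, filled where edgeR called it, and bars are list medians. Target genes reach from -0.31 to 4.13, the members from -0.06 to 1.23, and the noncanonical receptors have a median below 0.

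The genes whose levels ran most like each member were found by Pearson's r of log2(FPKM + 1) over the 9 libraries, among 10286 tested genes that were neither members nor predicted or clone names. Since the 9 libraries fall into a control and a membrane set, a high r mostly restates that step, and no p is given. Nfkb1 ran most like the proteasome subunit gene Psmd11 (r = 0.994), Rela like the anion exchanger Slc4a2 (0.994) and Rel like the palmitoyltransferase Zdhhc5 (0.987). Nfkb2 ran most like Plaur, the urokinase receptor (0.993), which had 41.3 FPKM in BMC+LIPUS, 35.8 in BMC and 16.0 in control, and Relb like the actin-disassembly gene Wdr1 (0.973). Nfkbia ran most like Ifitm3 (0.987), Nfkbib like the macrophage transcription factor Spi1 (0.976), Nfkbie like Pum3 (0.946) and Nfkbiz like the autophagy receptor Sqstm1 (0.995), at 264 FPKM in BMC+LIPUS, 237 in BMC and 128 in control. For Bcl3 it was Dhrs1 (0.959), with nearly equal group means of 8.63 FPKM in BMC+LIPUS, 8.87 in BMC and 9.04 in control.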

How the data were processed

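Poly(A) RNA of RAW264.7 cells was sequenced as read pairs from a stranded kit, per the labels' protocols. Per the submitters' processing notes, the tools were HISAT2 2.0.1, HTSeq 0.6.1, cutadapt 1.9.1 and DESeq2, with build GRCm39. Whether counting used strand is not given in the sources used here, so antisense or overlapping genes may share reads that cannot be told apart. The deposited table gives for each gene and library a whole, unnormalized count and its FPKM, both made by the authors. It has 56691 lines; 2639 without a name (0.0889% to 0.0976% of counts) were left out, and 77 names stand on several lines, of which the line with the highest mean count was kept. It also has 6 columns of 3 libraries that no label names, which were not used here.

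Counts were fitted with edgeR 4.0.16 (TMM, glmQLFit and glmQLFTest, 3 group means over 9 libraries) for the 12011 genes that averaged 0.5 FPKM or more, with Benjamini-Hochberg adjustment over all of them and calls at an adjusted p under 0.05. SE and intervals come from the F statistic. All adjusted p-values are edgeR's unless another tool is named. Levels and ratios use the deposited FPKM. The fit was tested on simulated counts. Alternatives were DESeq2 1.42.0, limma 3.58.1 on log2(FPKM + 1) and log2(FPKM + 0.1), RLE scaling and library totals, no filter and a minimum of 5 FPKM, a fit of only 6 libraries, a block for the replicate number, and leaving out each library. The members, the pathway lists and the marker lists were chosen with earlier results of these data known. Named genes were all members, up to 4 called genes of smallest p per pathway list and comparison, and the 3 genes most like each member, of which the first is printed. Ikbkg, Map3k14, Ccl5, Gadd45b and Il1b, which were not called, and Il6, which was not tested, were named after their values were seen. So were values of Csf3r, Lck, Pdgfrb, Siglech, Lyz2, Cd68 and Cd163 among the markers.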

Additional observations from a re-analysis of the deposited data

How the results depend on the processing

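The number of members called was 9 higher and 0 lower against control under all 18 alternatives for BMC and under 16 of 18 for BMC+LIPUS; it was 8 in the limma fits of FPKM, where Nfkbie was lost. It was 0 in BMC+LIPUS against BMC under all 18. Bcl3 is below the minimum of 5 FPKM and has no value there. Of 537 alternative values of single members, 535 kept the call or its absence. The number of other pathway genes called higher in BMC+LIPUS against BMC, 1 in the edgeR fit, was 3 with DESeq2 (Cxcl2, Ptgs2, Otud7b), 5 with no filter (Cxcl2, Ptgs2, Cd80, Ier3, Ep300), 0 with limma at either pseudocount and 0 to 2 on leaving out a library; the number called lower, 0, was 1 with no filter (Plau). The settings also differed in their calls over all genes in this comparison. DESeq2 gave 48 higher and 40 lower of 12011 genes, and no filter 158 and 78 of 22879. The limma fits gave 0 and 0 with a pseudocount of 1, and 0 and 1 with 0.1. On leaving out a library, 0 to 26 genes were called higher. The cause of these differences was not tested. Library totals, which lower the share of all genes called higher as given in the report, moved the median of all genes by less than 0.1 log2. Same-numbered libraries correlated at -0.01 to 0.13 in their deviations from the group means. Values this low neither show nor exclude that the numbers pair them. With the replicate number as a block, 9, 0 and 9 members and 3 other pathway genes (Cxcl2, Ptgs2, Ier3; BMC+LIPUS against BMC) were called. Over all genes in BMC+LIPUS against BMC, the block gave 32 higher and 19 lower, against 11 and 2 in the main fit. Precision is limited by 3 libraries a group and, for Bcl3, by its low counts.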
